A study of Mus musculus with 10 samples.

Results

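The epithelial sodium channel (ENaC) and the genes around it in aldosterone and vasopressin signalling were followed through 10 Drop-seq libraries of mouse kidney cortex. Drop-seq isolates cells in droplets with barcoded beads and counts transcripts from their 3′ ends. The 8 genes were taken by name from the 28808 genes in the deposited tables: Avpr2, Nr3c2, Hsd11b2, Sgk1, Scnn1a, Scnn1b, Scnn1g and Fxyd4. All mice were 4 weeks old. There was 1 library from normal kidney, 1 each from days 1, 2 and 4 after injury, and 2 each from days 7, 11 and 14. The labels give the injury no further name and state no genotype, strain or treatment, and they do not say that the libraries of a day came from different animals, so p-values measure only the spread between these libraries.

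In the collecting duct and connecting tubule, aldosterone enters the cell and binds the mineralocorticoid receptor, which raises transcription of sodium transport genes and of the kinase SGK1. SGK1 slows the removal of ENaC from the apical membrane, and ENaC then carries sodium into the cell. Cortisol or corticosterone would occupy the same receptor, and 11β-hydroxysteroid dehydrogenase type 2 inactivates them in these cells. Vasopressin acts through the V2 receptor and cAMP on aquaporin-2 and also on ENaC. Principal cells are the cells in which these routes meet.

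The deposited tables hold 64803 cell barcodes, of which 50378 were used after filters on depth, mitochondrial share and likely doublets. Total UMIs (unique molecular identifiers, 1 per captured transcript) ranged from 7091848 to 31632205 per library, and the median per used cell from 1252.5 to 2662. Median mitochondrial shares of used cells differed between days: 23.5% in control, 13.955%, 9.88% and 7.06% on days 1, 2 and 4, 3.61% and 4.29% at day 7, 15.2% and 11.8% at day 11 and 16.1% and 18.6% at day 14. The 2 libraries of day 11 stood apart in that 5362 and 5424 of their 10800 and 10711 barcodes had too few genes, where no other library lost a barcode to that limit. The part of either in the changes between days was not tested. There were 58 barcodes that occurred in 2 or more libraries. Cells were assigned to segments by UMIs of marker genes, none of them among the 8 genes. The principal gate (Aqp2, Aqp3, Aqp4, Elf5, Gata3) held 1365 cells, 1.8% to 3.69% of a library. The connecting tubule gate (Calb1, S100g, Trpv5, Slc8a1) held 1974 cells. Distal convoluted gating gave 631 cells and at least 20 in 7 libraries only. No gate had a marker of another class among its 10 leading genes, and the 10 of the principal gate included Fxyd4, Avpr2, Hsd11b2 and Scnn1b. Cells outside every gate made up 6.73% to 60.3% of a library.

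Sequence upstream of a start site was at hand for 6 of the 8 genes in RefSeq windows (GRCm38.p6), all but Scnn1a and Hsd11b2. The windows shown are those of Sgk1, whose sequence holds the full palindrome bound by steroid receptors, and, for comparison, of the 2 ENaC subunits with an entry. Each line gives the 250 bases before the start, 5′ to 3′ on the plus strand, and capitals mark the half-site TGTTCT, its reverse complement and, in the Sgk1 window, the whole palindrome with the spacer bases between its half-sites. The Sgk1 window is chr10:21993640-21993889, the Scnn1b window chr7:121864788-121865037 and the Scnn1g window chr7:121734229-121734478. No exon annotated in GENCODE M21 overlaps these 3 windows.
Sgk1: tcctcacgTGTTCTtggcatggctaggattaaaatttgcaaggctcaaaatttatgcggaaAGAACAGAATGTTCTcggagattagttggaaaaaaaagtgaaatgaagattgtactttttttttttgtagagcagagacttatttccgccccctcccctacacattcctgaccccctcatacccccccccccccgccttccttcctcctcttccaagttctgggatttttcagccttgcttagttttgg
Scnn1b: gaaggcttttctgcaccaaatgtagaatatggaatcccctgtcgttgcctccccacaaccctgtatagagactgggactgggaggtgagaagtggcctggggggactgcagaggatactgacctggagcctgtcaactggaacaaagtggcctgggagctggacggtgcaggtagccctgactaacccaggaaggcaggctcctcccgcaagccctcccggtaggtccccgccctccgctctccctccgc
Scnn1g: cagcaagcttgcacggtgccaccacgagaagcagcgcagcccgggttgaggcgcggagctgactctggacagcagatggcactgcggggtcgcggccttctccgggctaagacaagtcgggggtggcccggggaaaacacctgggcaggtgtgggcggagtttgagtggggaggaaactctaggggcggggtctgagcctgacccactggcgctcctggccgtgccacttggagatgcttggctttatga
The palindrome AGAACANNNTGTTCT, searched on both strands, occurred in 3 of 32851 RefSeq windows (0.00913%), and the Sgk1 window was one of them, with the match at bases -189 to -175 before the start. It was found in 1 of the 6 Sgk1 windows. The half-site TGTTCT, which overlaps the palindrome, occurred in 16.1% of all windows, in the Sgk1 window at 3 places, and in neither subunit window. It also occurred in the Avpr2 window, at bases -59 and -50, and in other Sgk1 windows, at -195 and at -13. The cAMP response element TGACGTCA occurred in 1.55% of all windows and in none of the 11 windows of these genes. A match describes the letters of the window only.

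Across segments, 7 of the 8 genes had their highest median level in the principal gate, and Sgk1 had its highest median in endothelial cells. Levels are in CPM, the UMIs of a gene per 1000000 UMIs of the gated cells. Principal sums were compared with those of each other tubular gate by the quasi-likelihood test of edgeR, with p-values adjusted after Benjamini and Hochberg, the library as a block and the marker genes left out. All 8 genes were higher in principal than in proximal cells, beside 33.0% of all tested genes. All 8 were also higher than in the thick limb (17.2% of all genes) and the distal convoluted gate (17.4%). Against intercalated cells 7 of 8 were higher (14.2%), and against the connecting tubule 5 of 8 (11.2%). The median log2 difference of the 8 genes was 7.14 against proximal cells and 0.62 against the connecting tubule, where that of all genes tested was 0.01 and -0.01. Without scaling factors the share of all called genes that were higher in principal cells moved from 49.6% to 71.1% against proximal cells, from 45% to 62.9% against thick limb, from 52.6% to 73.4% against distal convoluted and from 47.3% to 75.7% against connecting tubule cells, and no called gene of the 8 changed direction.

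**Figure D1:**
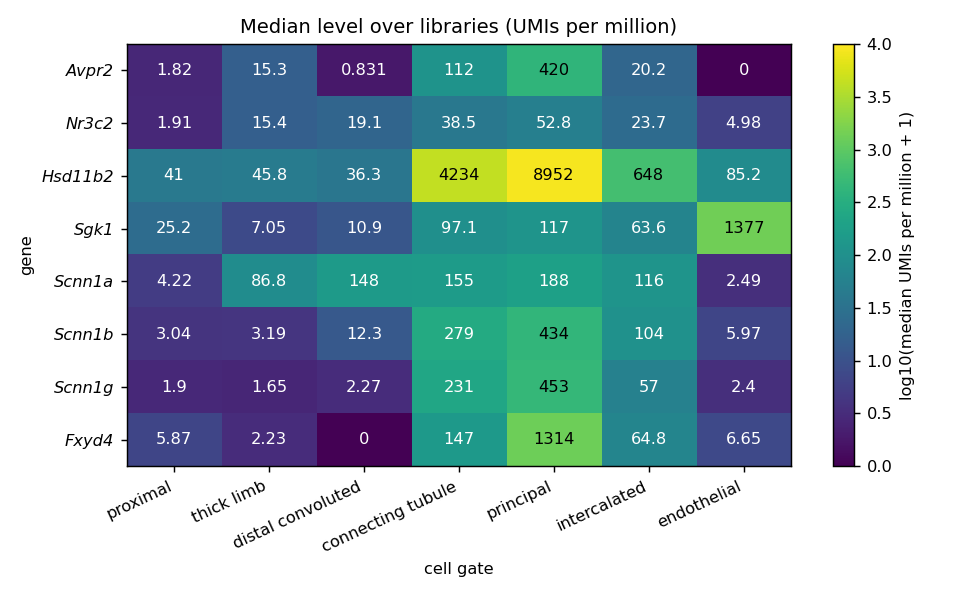
Median level over libraries (CPM, printed in each cell and coloured on a log10 scale) of the 8 genes in 6 tubular gates and endothelial cells. All genes but Sgk1 peak in the principal column, and Sgk1 peaks in the endothelial column at 1377.

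Avpr2 encodes the V2 vasopressin receptor. Its level in principal cells had a lowest value of 204 (a day 7 library), a median of 420 and a highest of 936 (a day 14 library). In connecting tubule cells it ran from 67.4 to 127, below every principal library. Thick limb cells held 7.36 to 19.1, and proximal cells 1.12 to 4.29. The principal level exceeded that of the connecting tubule by 1.88 log2 (SE 0.18, edgeR adjusted p = 2.31e-12) and that of the thick limb by 4.83 log2 (SE 0.20, edgeR adjusted p = 1.99e-26). The gene lies at chrX:73892102-73895502 and overlaps L1cam and Arhgap4 on the other strand in GENCODE M21. No strand setting of the counting is given, so reads of genes that overlap on opposite strands cannot be told apart.

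Nr3c2 encodes the mineralocorticoid receptor and was captured thinly, with 9 to 50 UMIs in the principal sum of a library. Its level had a median of 52.8 in principal cells (26.4 to 82.1), 38.5 in connecting tubule cells (22.5 to 45.7), 23.7 in intercalated cells, 19.1 in distal convoluted cells and 15.4 in the thick limb. Principal and connecting tubule levels overlapped and did not differ beyond their spread (0.38 log2, SE 0.17, edgeR adjusted p = 0.0957), although the difference passed with DESeq2 (adjusted p = 0.0346) and without scaling factors (edgeR adjusted p = 0.00933). Nr3c2 was also measured in the thick limb above its proximal level, and the principal excess over the thick limb was 1.67 log2 (SE 0.17, edgeR adjusted p = 4.85e-12). Nr3c2 lies at chr8:76899442-77245012 and overlaps Gm10649 and Gm24838 on the other strand and Gm23260 on its own.

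Hsd11b2 encodes the enzyme that keeps glucocorticoids off the receptor, and between 95.1% and 100% of principal cells of a library held at least 1 of its UMIs (94.8% to 100% when cells were thinned to 1000 UMIs). In proximal cells, which should lack it, 2.76% to 20% of cells did (1.49% to 12.6% thinned), at median depths of 1397 to 2705.5 UMIs against 1727 to 3154 in principal cells. Free RNA was not measured, and the proximal share is given for comparison beside other shares. Principal levels ran from 6062 to 11680, connecting tubule levels from 2819 to 7704, and proximal levels from 15.6 to 111. The principal excess over the connecting tubule was 1.02 log2 (SE 0.33, edgeR adjusted p = 0.0162). Intercalated cells held 409 in the control library, 724, 1301 and 1263 on days 1, 2 and 4, 2948 and 2184 at day 7, 572 and 416 at day 11 and 76.2 and 442 at day 14. Aqp2, a principal marker, ran from 319 to 445 in the same cells on day 7 against 231.5 in control and 38.1 to 70.9 on day 14, and its part in the intercalated Hsd11b2 level was not tested. The gene lies at chr8:105518755-105523988.

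Sgk1, the serum and glucocorticoid regulated kinase, had its highest level outside the tubule. Its level in endothelial cells was 1464 in the control library, 842, 1290 and 926 on days 1, 2 and 4, 736 and 1269 at day 7, 1579 and 2008 at day 11 and 2122 and 1604 at day 14. Every endothelial value lay above every value of the 6 tubular gates, the highest of which was 341 in principal cells on day 1. The principal minus endothelial difference was -3.59 log2 (SE 0.28, edgeR adjusted p = 1.45e-17; 27.6% of all genes were lower). The other 7 genes were higher in principal cells (30.7% of all genes). At least 1 Sgk1 UMI was found in 50.5% to 85.6% of endothelial, 3.66% to 52.5% of principal and 4.01% to 14.3% of proximal cells (40% to 83.7%, 0% to 17.6% and 1.25% to 6.14% when thinned). Endothelial cells were 1.75% to 6.55% of used cells and supplied 13.2% to 59.5% of all Sgk1 UMIs of a library (median 37.2%). Principal cells supplied 0.62% to 11.9% (median 5.38%). Among tubular gates the principal excess was 3.74 log2 over the thick limb (SE 0.32, edgeR adjusted p = 9.63e-15) and 1.45 log2 over proximal cells (SE 0.26, edgeR adjusted p = 3.41e-06), and it did not differ beyond its spread from the connecting tubule (0.08 log2, SE 0.26, edgeR adjusted p = 0.881). The gene lies at chr10:21882184-21999903.

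**Figure D2:**
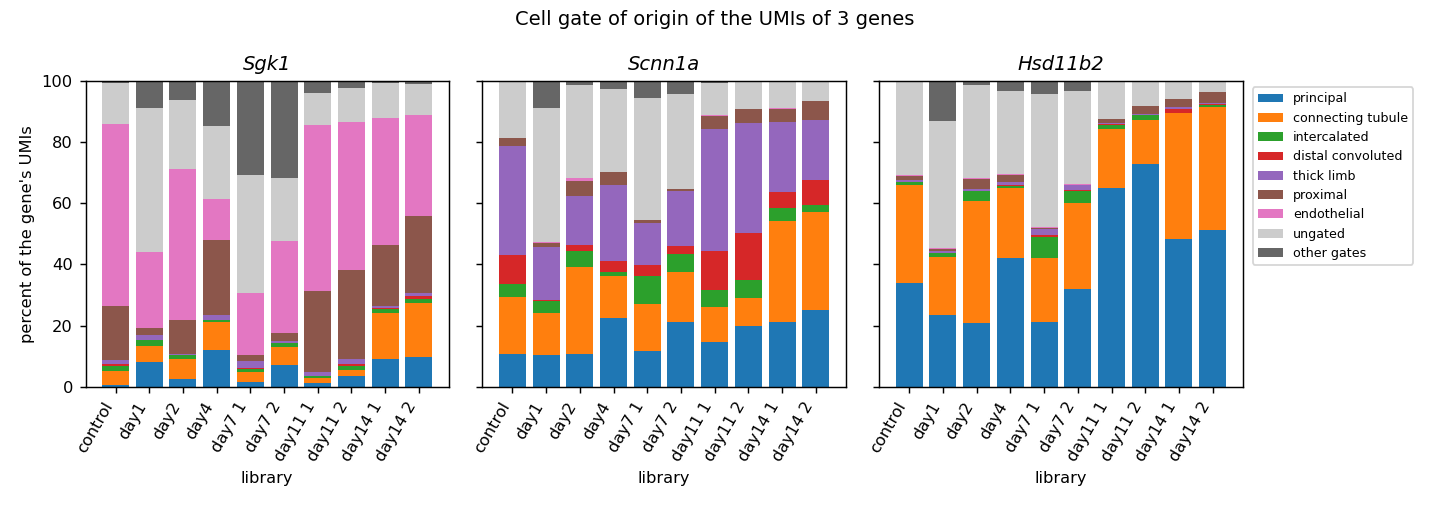
Percent of the UMIs of Sgk1, Scnn1a and Hsd11b2 that came from each cell gate, 1 bar per library. The endothelial share of Sgk1 runs from 13.2% to 59.5%, Scnn1a draws on thick limb cells as well as on principal and connecting tubule cells, and Hsd11b2 comes mainly from the principal and connecting tubule gates and from cells in no gate.

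Described by level alone, the 3 ENaC subunits did not share a segment pattern. Scnn1a encodes the alpha subunit, which is needed for channel assembly, and its median level was 188 in principal, 155 in connecting tubule, 148 in distal convoluted, 116 in intercalated and 86.8 in thick limb cells. Its thick limb level ran from 63.2 to 115 over 10 libraries, and proximal cells stood at 2.10 to 9.27. Scnn1b and Scnn1g encode the beta and gamma subunits. In the thick limb Scnn1b ran from 0.56 to 16.2 and Scnn1g from 0 to 10.3, close to their proximal levels of 0.70 to 7.83 and 0 to 9.66. Thick limb cells therefore held alpha UMIs well above the proximal level and beta and gamma UMIs near it. The principal excess over the thick limb was 1.11 log2 for Scnn1a (SE 0.13, edgeR adjusted p = 1.97e-10), 6.90 log2 for Scnn1b (SE 0.29, edgeR adjusted p = 9.11e-27) and 7.27 log2 for Scnn1g (SE 0.30, edgeR adjusted p = 1.23e-26). The test of a difference between the subunits was not run.

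In distal convoluted cells Scnn1a ran from 107.5 to 162 against 110.5 to 332 in principal cells, and the ranges overlapped. The principal excess was 0.40 log2 (SE 0.16, edgeR adjusted p = 0.042). That call was lost with DESeq2, with 2 of the other gates and in 5 of the leave-outs of a library, among them day 14 replicate 1, without which it was 0.23 log2 (edgeR adjusted p = 0.285). Scnn1b in the same cells ran from 2.49 to 92.9 and Scnn1g from 0 to 15.5, and their principal excesses were 4.03 and 6.88 log2. Between principal and connecting tubule cells, Scnn1a differed by 0.21 log2 (SE 0.13, edgeR adjusted p = 0.274; without scaling factors 0.42 log2, adjusted p = 0.011), Scnn1b by 0.64 log2 (SE 0.20, edgeR adjusted p = 0.0129) and Scnn1g by 0.61 log2 (SE 0.20, edgeR adjusted p = 0.0212). With DESeq2 the beta and gamma differences did not pass (adjusted p = 0.102 and 0.14), and 5 of the leave-outs of a library ended the gamma call, the largest adjusted p being 0.0626 without day 14 replicate 1. Thick limb cells supplied a median of 21.3% of all Scnn1a UMIs, and principal cells 17.3%. Scnn1a lies at chr6:125320659-125344943, Scnn1b at chr7:121865038-121918514, where it overlaps Cog7 on the other strand, and Scnn1g at chr7:121734479-121768475.

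All 3 subunits were detected together in 33.5% of principal cells of the control library, 23.0%, 20.7% and 31.3% on days 1, 2 and 4, 16.7% and 29.8% at day 7, 10.6% and 21.1% at day 11 and 40.4% and 32.3% at day 14. Median UMIs per principal cell were 2701 in control, 2832, 2514 and 2287 on days 1, 2 and 4, 1771.5 and 3154 at day 7, 1744 and 1727 at day 11 and 2426 and 2336 at day 14. The shallowest 3 libraries were among the 4 lowest shares, but the highest share was not in the deepest library, and the part of depth was not tested. No subunit was detected in 5.3% to 27.8% of principal cells and in 93.6% to 99.3% of proximal cells.

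Fxyd4 encodes a small membrane protein, also called CHIF, that modulates the sodium pump of the collecting duct. Its level was 561 to 3693 in principal cells, 65.0 to 491 in connecting tubule, 12.7 to 227 in intercalated and 0 to 7.76 in thick limb cells. The principal excess was 3.04 log2 over the connecting tubule (SE 0.28, edgeR adjusted p = 1.5e-12) and 9.01 log2 over the thick limb (SE 0.40, edgeR adjusted p = 1.61e-25). Principal cells supplied 24.6% to 89.1% of its UMIs in a library (median 52.3%), and cells in no gate 2.83% to 44.1%. The gene lies on the minus strand at chr6:117933559-117937692 and overlaps Gm25535 on the same strand.

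Over 57 sums of a library and a tubular gate, and among 6380 genes, the gene with the pattern most like Fxyd4 was Aqp2 (Pearson's r = 0.978), which is a gate gene. Ptger1, a prostaglandin receptor, was most like Avpr2 (0.953). Hsd11b2 and Scnn1b were each other's closest (0.967), Kcne1 was closest to Scnn1g (0.976), Hk1 to Scnn1a (0.941) and Slc35g1 to Nr3c2 (0.912). The caveolin gene Cav1 was among the 3 closest of Hsd11b2, Scnn1b and Scnn1g. Sgk1 had no gene above 0.768 (Aqp3, a gate gene). These correlations describe sums that share libraries and gates and have no test.

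Within principal-gated cells, the largest changes over time were in Fxyd4, Avpr2 and Sgk1. Days 7, 11 and 14 were each compared with the single control library, which the 3 comparisons share, and with the neighbouring day. The spread between control libraries is unmeasured, so every test against control takes its spread from the replicated days. Days 1, 2 and 4 have 1 library each, entered no test and have no replicate check. Values before scaling are given first. Scaling matters here: without scaling factors the median of all genes moved by 0.315 log2 on day 7 against control and by -0.238 from day 7 to day 11, and the share of called genes that were higher went from 48.0% to 80.1%, from 57.1% to 31.0% and, on day 11 against control, from 43.6% to 54.4%. No called change of the 8 genes took the other direction.

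**Figure D3:**
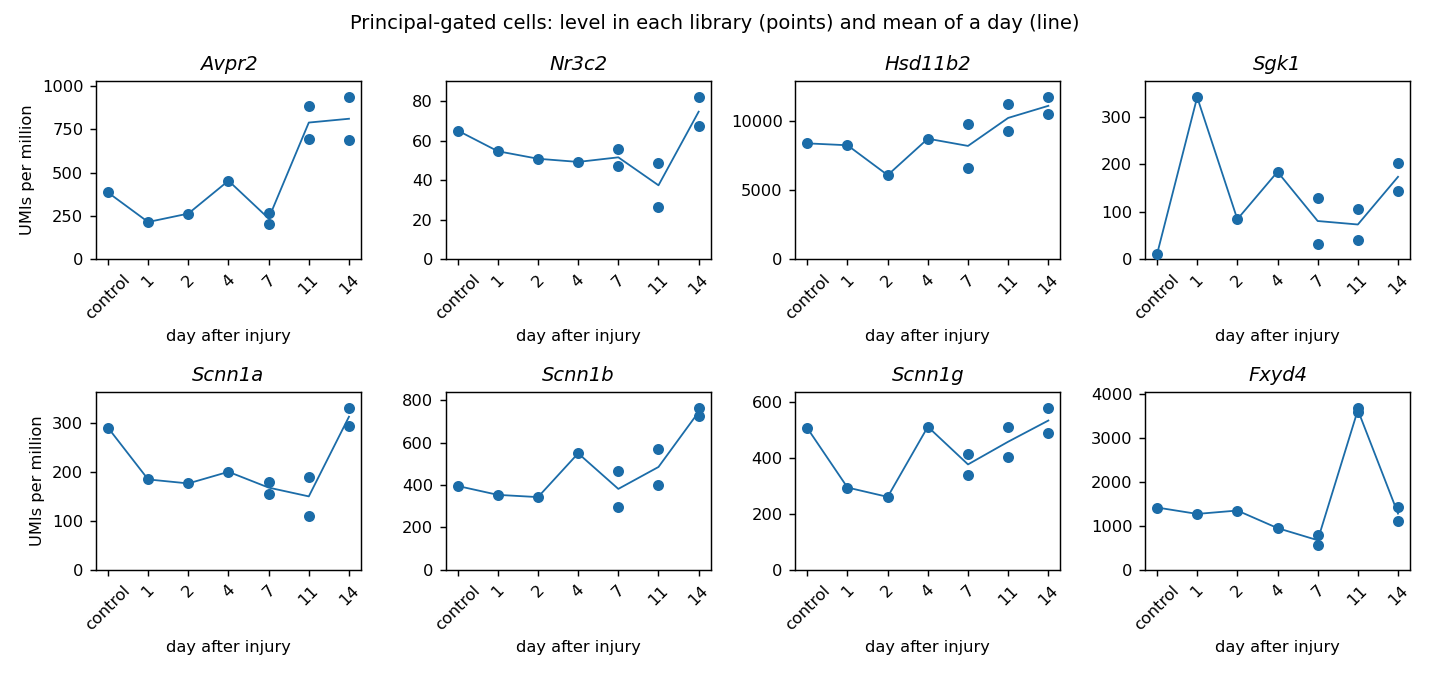
Level of each gene (CPM, axes from 0) in principal-gated cells of every library (points), with the mean of each day as a line. Fxyd4 stands at 3597 and 3693 on day 11 and at or below 1440 in the other libraries, and Avpr2 is higher on days 11 and 14 than in any earlier library.

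Fxyd4 in principal cells was at 1422 CPM in the control library, 1276, 1353 and 953 on days 1, 2 and 4, 561 and 792 at day 7, 3597 and 3693 at day 11 and 1125 and 1440 at day 14. Both day 7 libraries were the lowest of the series and both day 11 libraries the highest, with no overlap between days 7, 11 and 14. It fell by 1.37 on the log2 scale from control to day 7 (SE 0.29, edgeR adjusted p = 0.00131), rose by 2.65 log2 from day 7 to day 11 (SE 0.25, edgeR adjusted p = 4.54e-10) and fell by 1.45 on the log2 scale from day 11 to day 14 (SE 0.24, edgeR adjusted p = 8.8e-05). Day 11 was 1.28 log2 above control (SE 0.31, edgeR adjusted p = 0.0089), and day 14 differed from control by -0.17 log2 (SE 0.29, edgeR adjusted p = 0.827). These 4 calls held under every alternative run, with adjusted p up to 0.0493. Cells in no gate were 10.2% of used cells in control, 46.7% and 32.5% at day 7 and 14.3% and 9.87% at day 11. Their mean Fxyd4 level was 120 ± 42.3 CPM at day 7 and 90.0 ± 8.19 at day 11 (SD, n = 2 each). The part of cells left outside the gate in these changes was not tested.

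Avpr2 was at 386 in control, 215, 263 and 453 on days 1, 2 and 4, 204 and 266 at day 7, 884 and 695 at day 11 and 687 and 936 at day 14. All 4 libraries of days 11 and 14 lay above all earlier ones. It rose by 1.95 log2 from day 7 to day 11 (SE 0.26, edgeR adjusted p = 6.01e-07), a call that held under every alternative run. The fall from control to day 7 was 1.0 on the log2 scale (SE 0.30, edgeR adjusted p = 0.0343), and it did not pass with DESeq2, without scaling, with 2 of the other gates, or without either day 14 library, whose removal gave adjusted p = 0.0565 and 0.0561. Day 11 and day 14 exceeded control by 0.96 and 1.05 log2 without passing (edgeR adjusted p = 0.055 and 0.0563). Both passed without either day 7 library (edgeR adjusted p = 0.0055 and 0.0114 for day 11, 0.00336 and 0.00924 for day 14) and without scaling factors (0.0345 and 0.0495), and day 14 also with the gate of 2 UMIs over 1 marker (0.04).

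Aqp2, the water channel that vasopressin signalling inserts, helped to define the gate and was not tested. Its level in the same cells was 5560 in control, 7197, 7021 and 8376 on days 1, 2 and 4, 4004 and 5369 at day 7, 11380 and 12250 at day 11 and 9587 and 7511 at day 14. Gating without Aqp2 left the direction of the Avpr2 and Fxyd4 changes from day 7 to day 11 in place, but that gate still used Aqp3 and Aqp4. In principal-gated cells Aqp3 was at 3711 in control, 1321 and 1532 at day 7 and 4074 and 4288 at day 11. Aqp4 was at 349 in control, 260 and 338 at day 7 and 658 and 528 at day 11. Because both also rose from day 7 to day 11, leaving out Aqp2 cannot separate the 2 changes from those of the gate genes.

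Sgk1 in principal cells was at 10.2 in control (7 UMIs), 341, 84.1 and 184 on days 1, 2 and 4, 32.0 and 129 at day 7, 40.4 and 106 at day 11 and 202 and 145 at day 14. The control value lay below the proximal range of 13.2 to 54.8, and every injured library lay above control. The 2 libraries of day 7 differed by a wide margin, as did those of day 11. It rose from control by 2.87 log2 on day 7 (SE 0.64, edgeR adjusted p = 0.00309), 2.73 log2 on day 11 (SE 0.67, edgeR adjusted p = 0.0109) and 4.04 log2 on day 14 (SE 0.62, edgeR adjusted p = 5.8e-05). As a ratio of pooled UMIs, day 7 was 10.8 times control, with an exact 95% interval of 5.09 to 27.3, and day 14 was 16.9 times control (8.07 to 42.7); such intervals cover counting error only. Without day 7 replicate 2 the day 7 call was lost (1.29 log2, edgeR adjusted p = 0.424), without day 11 replicate 2 the day 11 call was lost (1.90 log2, edgeR adjusted p = 0.231), and DESeq2 made neither. The day 14 call held under every alternative run. From day 11 to day 14 it rose by 1.31 log2 (SE 0.38, edgeR adjusted p = 0.0305), which was lost without day 11 replicate 1 (0.76 log2, adjusted p = 0.437) or day 14 replicate 1 (1.07 log2, adjusted p = 0.164), with DESeq2 (adjusted p = 0.589) and with the gates of 2 UMIs over 1 marker or without Aqp2 (edgeR adjusted p = 0.0734 and 0.056).

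The alpha subunit Scnn1a was at 291 in control, 185, 177 and 201 on days 1, 2 and 4, 156 and 181 at day 7, 110.5 and 191 at day 11 and 332 and 296 at day 14. The control and day 14 libraries were the 3 highest. It fell from control by 1.09 on the log2 scale on day 7 (SE 0.31, edgeR adjusted p = 0.0264) and by 1.04 on day 11 (SE 0.32, edgeR adjusted p = 0.047), and rose by 1.12 log2 from day 11 to day 14 (SE 0.28, edgeR adjusted p = 0.0083). The day 11 call was lost without either library of day 11 or of day 14 (edgeR adjusted p from 0.0501 to 0.316, the last without day 11 replicate 1, which gave -0.69 log2), and also without scaling factors (0.0689) and with the gates of 2 or 5 UMIs (0.0563 and 0.0545). The day 7 call was lost without scaling factors (-0.77 log2, edgeR adjusted p = 0.126). The rise to day 14 was lost without day 11 replicate 1 (0.77 log2, adjusted p = 0.26) or day 14 replicate 1 (1.05 log2, adjusted p = 0.0941), and DESeq2 made none of these 3 calls.

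The beta subunit Scnn1b was at 396 in control, 354, 343 and 550 on days 1, 2 and 4, 296 and 467 at day 7, 402 and 569 at day 11 and 726 and 764 at day 14. The 2 day 14 libraries were the highest, and day 14 exceeded control by 0.89 log2 without passing (SE 0.31, edgeR adjusted p = 0.128); without either day 7 library it passed (adjusted p = 0.014 and 0.026). Without either day 7 library it also passed from day 11 to day 14 (edgeR adjusted p = 0.0152 and 0.0191), and without day 7 replicate 2 from day 7 to day 11 (0.95 log2, edgeR adjusted p = 0.019). The gamma subunit Scnn1g ran from 261 to 580 and passed no comparison with all libraries in, but passed on day 7 against control without day 7 replicate 1 (-0.88 log2, edgeR adjusted p = 0.0218). Hsd11b2 ran from 6062 to 11680 and Nr3c2 from 26.4 to 82.1, and neither passed a comparison of days with all libraries in. Without day 7 replicate 1 Hsd11b2 passed from day 7 to day 11 (0.85 log2, edgeR adjusted p = 0.0415), and without either day 7 library Nr3c2 passed from day 11 to day 14 (adjusted p = 0.0418 and 0.0475). Their intervals are wide: for Nr3c2 the day 11 difference from control was -0.86 log2 with an SE of 0.43.

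Counted over the 8 genes, 1 was higher and 3 were lower on day 7 than in control (3.01% and 3.26% of all genes tested), 2 were higher and 1 lower on day 11 than in control (2.5% and 3.24%), and 1 was higher on day 14 than in control (0.938%). From day 7 to day 11, 2 rose (5.07%), and from day 11 to day 14, 2 rose and 1 fell (2.28% and 3.77%). The median log2 change of the 8 was -0.73, 0.21 and 0.28 against control and 0.54 and 0.47 between neighbouring days, beside medians between -0.03 and 0.08 for all genes tested. Markers of injured tubule cells also differed between days in the same gate. Their sum (Havcr1, Krt20, Sprr2f, Sprr2g, Vcam1) was 0 in control with all 5 at 0, 2203, 1692 and 1154 on days 1, 2 and 4, 617 and 386 at day 7, 0 and 14.7 at day 11 and 1.82 and 0 at day 14. Macrophage markers summed to 168 and 26.1 on day 7 and to at most 17.6 on days 11 and 14, with all 5 at 0 in control. Markers of the connecting tubule summed to 713 in control, 525 and 741 at day 7, 555 and 1050 at day 11 and 1646 and 1480 at day 14, and Calb1 among them went from 383 and 587 on day 11 to 1262 and 1192 on day 14, beside the Scnn1a rise. Markers of intercalated cells ran from 78.8 to 1198. Markers of endothelial cells, the gate with the highest Sgk1 level, summed to 4.35 in control, 63.2, 26.6 and 27.7 on days 1, 2 and 4, 44.0 and 19.1 at day 7, 13.5 and 20.5 at day 11 and 16.4 and 3.29 at day 14. Markers of proximal cells, 9 in all, summed to 215 in control, 101, 202 and 158 on days 1, 2 and 4, 20.02 and 32.2 at day 7, 224 and 419 at day 11 and 314 and 384 at day 14. Kap, an abundant proximal transcript, was at 1638 in control, 20.02 and 40.2 at day 7, 1701 and 2977 at day 11 and 1614 and 1751 at day 14 in the same gate. Both were low on day 7 and high on day 11, as Fxyd4 and Avpr2 were. The part of these lists was not tested.

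The changes in principal cells were compared with those in the connecting tubule gate, the only other gate tested in this way. The change of a gene in principal cells was set against its change in connecting tubule cells of the same libraries in 1 edgeR fit with a library block, which leaves 3 residual degrees of freedom and rests largely on the spread shared over genes. For day 7 against control the change of 3 of 8 genes was lower in principal cells (2.62% of genes tested), and for day 11 against day 7 that of 4 of 8 was higher (2.11%). For day 11 against control, day 14 against control and day 14 against day 11 it was 0 of 8 (0.232%, 0.262% and 0.484%), with 2, 2 and 1 of the 8 at an unadjusted p under 0.05. Without scaling factors the median over all genes moved by -0.21 and 0.296 log2 in the first 2 of these, and the share of called genes with the higher change in principal cells went from 43.1% to 19.4% and from 48.0% to 82.0%; for day 11 and day 14 against control it went from 52.2% to 71.4% and from 65.4% to 80.0%.

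**Figure D4:**
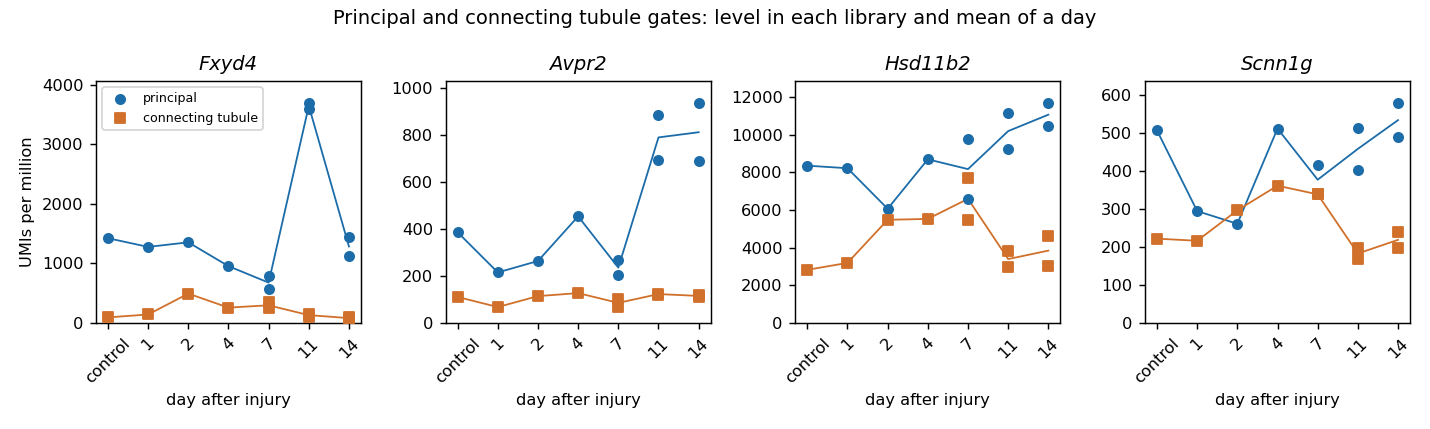
Level (CPM, axes from 0) of Fxyd4, Avpr2, Hsd11b2 and Scnn1g in principal-gated (circles) and connecting tubule-gated cells (squares) of each library, with the mean of a day as a line. On day 7 the Hsd11b2 values of the gates overlap, and on day 11 they lie apart, at 9216 and 11160 against 2949 and 3830.

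Fxyd4 in connecting tubule cells was at 91.9 in control, 141, 491 and 256 on days 1, 2 and 4, 248 and 343 at day 7, 106 and 154 at day 11 and 65.0 and 94.7 at day 14. The day 7 libraries lay above control there and below it in principal cells. The change from control to day 7 was lower in principal cells (difference -2.54 log2, SE 0.24, edgeR adjusted p = 6.27e-22), and the change from day 7 to day 11 was higher by 3.35 log2 (SE 0.25, edgeR adjusted p = 4.52e-38). Both held under every alternative run. Mean Fxyd4 levels were lower on day 11 than on day 7 in other gates too, at 223 ± 5.04 and 64.8 ± 10.7 CPM in intercalated (SD, n = 2 each) and 11.1 ± 6.18 and 4.09 ± 1.33 in proximal cells, with no test of these.

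Hsd11b2 in connecting tubule cells was at 2819 in control, 3186, 5476 and 5523 on days 1, 2 and 4, 7704 and 5475 at day 7, 3830 and 2949 at day 11 and 3038 and 4639 at day 14. The enzyme's transcript was highest there in libraries of days 2 to 7, while principal cells held 9742 and 6594 on day 7 beside 8352 in control. The difference between the gates was -1.05 log2 for day 7 against control (SE 0.19, edgeR adjusted p = 8.19e-06) and 0.99 log2 for day 11 against day 7 (SE 0.16, edgeR adjusted p = 2.4e-07), and both held under every alternative run. Its mean level also went down from day 7 to day 11 in other gates, with no test of these. In intercalated cells it went from 2566 ± 540 to 494 ± 110 CPM (SD, n = 2 each) and in thick limb cells from 241 ± 69.5 to 12.4 ± 0.75. In proximal cells it went from 77.5 ± 47.8 to 16.0 ± 0.63 and in endothelial cells from 177 ± 107 to 22.7 ± 8.71. Distal convoluted cells were left out, because day 7 replicate 1 held 10 of them, too few for a sum. Scnn1g was at 222 in control, 339 and 339 at day 7 and 169 and 197 at day 11 in connecting tubule cells, against 507, 416 and 339, and 404 and 513 in principal cells. Its differences were -0.88 log2 (SE 0.24, edgeR adjusted p = 0.0085) and 0.92 log2 (SE 0.25, edgeR adjusted p = 0.0121). The first was lost without day 7 replicate 2 (edgeR adjusted p = 0.423), and the second without that library, day 11 replicate 1 or day 11 replicate 2 (edgeR adjusted p = 0.402, 0.103 and 0.109). Avpr2 differed by 0.98 log2 from day 7 to day 11 (SE 0.30, edgeR adjusted p = 0.0318), lost without day 7 replicate 2 or day 11 replicate 1 (edgeR adjusted p = 0.614 and 0.43). Calb1 helped to define the connecting tubule gate. It moved there from 5990 in control to 1043 and 993 on day 7 and back to 6789 and 5892 on day 11. Injured tubule markers summed there to 323 and 187 on day 7 against 0.53 in control and 0 in both day 11 libraries. Markers of distal convoluted cells summed there to 2230 in control, 235 and 228 at day 7 and 1831 and 1886 at day 11. In the distal convoluted gate itself Fxyd4 ran from 0 to 7.72 and Hsd11b2 from 15.0 to 564. The part of these in the differences between gates was not tested.

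Summed over all used cells of a library, the genes follow both their level in a cell and the share of their cells, and fewer cells of a type cannot be told apart from less RNA per cell. Proximal-gated cells were 58.3% of used cells in control, 8.71%, 38.6% and 26.5% on days 1, 2 and 4, 4.55% and 5.28% at day 7, 58.2% and 68.2% at day 11 and 70.7% and 71.7% at day 14. Connecting tubule-gated cells were 4.66% in control, 5.39%, 4.19% and 3.06% on days 1, 2 and 4, 3.24% and 4.22% at day 7, 1.86% and 1.46% at day 11 and 5.64% and 5.18% at day 14. The part of these swings in the changes over all cells was not tested. Without scaling factors the median of all genes moved by 0.709 log2 for day 7 against control, -0.651 for day 11 against day 7, -0.158 for day 14 against day 11 and -0.101 for day 14 against control. The share of called genes that were higher went from 48.8% to 84.4%, 49.5% to 18.5%, 50.4% to 28.9% and 56.7% to 42.7% in that order. Changes are therefore given relative to TMM scaling.

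Scnn1a was at 67.8 CPM in control, 49.9, 48.3 and 34.7 on days 1, 2 and 4, 48.7 and 54.2 at day 7, 26.1 and 32.3 at day 11 and 41.3 and 38.9 at day 14. The control library was the highest of the 10. On day 7 it was the only 1 of the 8 genes to pass against control (18.8% of all genes tested were lower), at -1.11 log2 (SE 0.22, edgeR adjusted p = 0.00212); without scaling factors it was -0.40 log2 (adjusted p = 0.125). Avpr2, Nr3c2 and Fxyd4, which did not pass on day 7, were at -0.45, -0.22 and -0.06 log2 with scaling and at 0.25, 0.49 and 0.65 without it. Without scaling factors 4 of the 8 genes passed as higher instead, beside 43.5% of all genes. These were Hsd11b2 at 1.31 log2, Sgk1 at 1.22, Scnn1b at 1.03 and Scnn1g at 0.83 (edgeR adjusted p = 0.00392, 0.00475, 0.00356 and 0.00748). Sgk1 also passed without day 7 replicate 1 (0.82 log2, edgeR adjusted p = 0.0157).

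On day 11 against control 3 of 8 were lower and 2 higher (9.39% and 8.73% of all genes). Scnn1a was at -1.27 log2 (SE 0.22, edgeR adjusted p = 0.00416), which held under every alternative run. Nr3c2 was at -1.24 log2, Scnn1g at -0.92, Sgk1 at 1.28 and Fxyd4 at 1.0 (edgeR adjusted p = 0.00892, 0.0123, 0.0135 and 0.0431). Without day 11 replicate 1 the Scnn1g and Fxyd4 calls were lost (adjusted p = 0.0599 and 0.087), and without day 11 replicate 2 the Nr3c2, Sgk1 and Fxyd4 calls (adjusted p = 0.0553, 0.0519 and 0.129), which left 2 of 8. The Fxyd4 call was also lost with at most 25% mitochondrial UMIs (0.69 log2, edgeR adjusted p = 0.16). On day 14 against control 0 of 8 passed edgeR's test (7.42% of all genes), with 1 at an unadjusted p under 0.05 and 0 by DESeq2.

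Between neighbouring days more genes passed. From day 7 to day 11 4 of 8 fell and 3 rose (22.3% and 21.9% of all genes): Nr3c2, Hsd11b2, Scnn1b and Scnn1g fell by 1.02, 0.90, 0.85 and 1.04 on the log2 scale (edgeR adjusted p = 0.00365, 0.00608, 0.00382 and 0.00062), and Avpr2, Sgk1 and Fxyd4 rose by 0.69, 0.76 and 1.06 log2 (edgeR adjusted p = 0.031, 0.0171 and 0.00427). The 4 falls held under every alternative run; the 3 rises were lost without scaling factors, at 0.04, 0.11 and 0.41 log2. Scnn1a passed as lower without scaling factors (-0.82 log2, edgeR adjusted p = 0.00267), so that 5 of 8 were then lower, beside 47.5% of all genes. Without day 7 replicate 1 the Avpr2 and Sgk1 calls were lost (adjusted p = 0.161 and 0.0811), as they were without day 11 replicate 1 (0.18 and 0.0561), and the Sgk1 call also without day 11 replicate 2 (0.0748). Scnn1g, for one, was at 83.1 and 69.6 on day 7 and at 22.6 and 24.4 on day 11, beside 42.8 in control.

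From day 11 to day 14, 4 rose and 2 fell (8.96% and 8.82%). Nr3c2, Scnn1a, Scnn1b and Scnn1g rose by 0.95, 0.62, 0.95 and 0.74 log2 (edgeR adjusted p = 0.0154, 0.0425, 0.00777 and 0.0153), and Sgk1 and Fxyd4 fell by 0.74 and 1.33 on the log2 scale (edgeR adjusted p = 0.0418 and 0.00508). Fxyd4, which went from 140 and 139 to 40.4 and 59.4, held under every alternative run. Without day 14 replicate 2 it was the only call left, and without day 11 replicate 1 or day 14 replicate 1 there were 2. The Scnn1a call was lost in 8 of 15 alternatives, among them DESeq2 (adjusted p = 0.0868), RLE normalization (0.0616), at most 25% mitochondrial UMIs (0.145) and no scaling factors (0.102). The Nr3c2 call was also lost with DESeq2 (adjusted p = 0.0573) and the Sgk1 call with at most 25% mitochondrial UMIs (edgeR adjusted p = 0.0991).

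Sgk1 over all cells was at 40.2 in control, 120, 90.9 and 60.5 on days 1, 2 and 4, 72.8 and 114 at day 7, 103 and 99.0 at day 11 and 58.7 and 49.6 at day 14. With endothelial-gated cells left out, an alternative chosen after seeing the data, Sgk1 passed on day 7 against control (1.38 log2, edgeR adjusted p = 0.00169) and on day 14 against control (1.15 log2, adjusted p = 0.0278). Its changes from day 7 to day 11 and from day 11 to day 14 then no longer passed (0.20 and -0.43 log2, adjusted p = 0.446 and 0.174). Macrophage-gated cells stayed in these sums. Their median Sgk1 level was 115.9 CPM over 9 libraries, beside 117.1 in principal cells. They supplied 0.0887% to 27.7% of a library's Sgk1 UMIs (median 1.43%). They were 40 of 5843 used cells in control and 727 of 3454 and 1224 of 4903 at day 7. At day 14 they were 23 of 6633 and 27 of 5913. Their part in the Sgk1 changes was not tested.

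Of 47 further genes of the pathway, all were tested over all cells and 37 in principal cells. Over all cells on day 7 against control 3 were higher and 23 lower (6.38% and 48.9% of the 47, beside 17.9% and 18.8% of all genes), with a median of -0.63 log2 beside 0.03 for all genes. Without scaling factors it was 15 higher and 11 lower, beside 43.5% and 8.05% of all genes. The 9 lower of 11 genes of the WNK cascade and potassium channels included Slc12a3, the thiazide-sensitive cotransporter (-2.11 log2, edgeR adjusted p = 4.29e-05), and the 6 lower of 10 receptor partners and steroid targets included Hsd11b1, which reactivates glucocorticoids (-3.09 log2, edgeR adjusted p = 0.000845), and Sgk2 (-2.23 log2, edgeR adjusted p = 0.000111). Without scaling factors 5 genes of each of these groups were lower. Between segments, Hsd11b1 and Sgk2 were lower in principal than in proximal cells (-4.52 and -4.26 log2, edgeR adjusted p = 1.9e-21 and 2.52e-23). Slc12a3 is a marker of the distal convoluted gate, which held 2.91% of used cells in control and 0.29% and 0.489% on day 7. The part of cell shares in these falls was not tested. Edn1, which encodes endothelin-1, rose by 3.45 log2 (edgeR adjusted p = 3.43e-06). On day 11 against control 4 were higher and 13 lower (8.51% and 27.7%, beside 8.73% and 9.39% of all genes), and on day 14 against control 2 and 2 (4.26% each, beside 4.2% and 3.22%). From day 7 to day 11 17 were higher and 7 lower (36.2% and 14.9%, beside 21.9% and 22.3%), a split that turned to 7 and 19 without scaling factors. From day 11 to day 14 13 were higher and 4 lower (27.7% and 8.51%, beside 8.96% and 8.82%), and 10 and 5 without scaling factors. Of those 13, 9 belonged to the WNK and potassium channel group, among them Kcnj16 (1.86 log2, edgeR adjusted p = 0.000292) and Klhl3 (1.34 log2, edgeR adjusted p = 0.00411).

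In principal cells 2 pathway genes were higher and 4 lower on day 7 against control (5.41% and 10.8% of 37, beside 3.01% and 3.26% of all genes), and 3 and 2 without scaling factors. On day 11 against control 2 were higher and 3 lower (5.41% and 8.11%, beside 2.5% and 3.24%). From day 7 to day 11 3 were higher and 3 lower (8.11% each, beside 5.07% and 3.81%), and 2 and 5 without scaling factors. On day 14 against control edgeR's test called 0 of 37, with 7 at an unadjusted p under 0.05, and DESeq2 called 0 of the 13 to which it gave an adjusted p. Edn1, an autocrine inhibitor of sodium and water uptake in the collecting duct, had 3 UMIs in control (4.35 CPM) and stood at 232 and 213 CPM on day 7 and at 10.8 and 17.6 on day 11. Its pooled day 7 ratio to control was 49.9 with an exact 95% interval of 16.9 to 243, and it fell by 3.71 on the log2 scale from day 7 to day 11 (SE 0.41, edgeR adjusted p = 1.06e-08). Ednrb, an endothelin receptor, moved the other way, by -1.42 log2 from control to day 7 (edgeR adjusted p = 0.0403, and -1.1 log2 with adjusted p = 0.119 without scaling factors) and 1.72 log2 from day 7 to day 11 (edgeR adjusted p = 0.00214). Both Edn1 and Ednrb were lower in principal than in endothelial cells (-2.80 and -3.32 log2, edgeR adjusted p = 2.71e-10 and 1.23e-18). The part of endothelial transcripts in their changes was not tested. Fxyd2, the gamma subunit of the sodium pump, rose by 1.58 log2 from day 7 to day 11 (edgeR adjusted p = 7.28e-05), in the same direction as Fxyd4.

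Nedd4, a ubiquitin ligase of the family that marks ENaC for removal, fell by 1.18 on the log2 scale from day 7 to day 11 (edgeR adjusted p = 0.00533). Spint2, an inhibitor of the proteases that cleave ENaC, was 1.14 log2 above control on day 11 (edgeR adjusted p = 0.0246) and fell by 1.0 on the log2 scale to day 14 (edgeR adjusted p = 0.00936). From day 11 to day 14, 3 genes were higher and 2 lower (8.11% and 5.41% of 37, beside 2.28% and 3.77% of all genes), and 2 and 2 without scaling factors. The basolateral potassium channel genes Kcnj10 and Kcnj16 rose by 1.17 and 0.99 log2 (edgeR adjusted p = 0.00353 and 0.0104), and Stk39, the kinase SPAK, by 0.84 log2 (edgeR adjusted p = 0.0416, and 0.0597 without scaling factors). Kcnj10 had been lower on day 7 than in control by -1.33 log2 (edgeR adjusted p = 0.00542).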

How the data were processed

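The authors deposited Drop-seq UMI counts per gene and cell barcode, whole numbers with no normalization; per the submitters' processing notes reads were aligned with Bowtie2 2.2.7 to mm10, and counting options are not given in the sources used here. The 8 genes, gene lists, gates and tests were chosen with earlier results of these data known. Cells needed 500 UMIs, 500 genes and at most 50% mitochondrial UMIs, and the top 5% of Scrublet scores per library were removed because the automatic threshold marked at most 0.111% of cells. A gate needed 3 UMIs over 2 of its markers and more than 2 times the sum of any other class (principal, connecting tubule and distal convoluted gates needed only the largest of their 3). Counts were summed per library and gate of at least 20 cells. The sums were tested with edgeR 4.0.16 (R 4.3.3; quasi-likelihood, TMM, filterByExpr, Benjamini-Hochberg over all genes, 0.05), without marker genes where gates were used. The SE is the log2 change divided by the square root of F. Single-library days shared the fit, which left 3 residual degrees of freedom over all cells. DESeq2 1.42.0 (Wald test) was an alternative. The scripts were tested on simulated counts. Libraries of a day differed by more than sampling noise (chi-square per degree of freedom 15.5 to 30).

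Named further genes were up to 3 per direction and comparison of a list of 47, past 0.05 and at a mean log2 CPM of at least 3. The closest patterns were the 3 highest Pearson's r of log2(CPM + 10) over genes with a mean CPM of at least 20. The endothelial comparison, the comparison of changes between gates, and the fits without scaling factors or endothelial cells were added after seeing the data. Shares of cells were also computed at 1000 UMIs per cell, leaving out 140 of 1365 principal cells. One further gene of that list is not reported here.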

Additional observations from a re-analysis of the deposited data

Results flagged for a closer look

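The change of a gene between days differed between principal-gated and connecting tubule-gated cells by a test of the difference itself in 7 cases. For day 7 against control the principal minus connecting tubule difference was -2.54 log2 for Fxyd4, -1.05 for Hsd11b2 and -0.88 for Scnn1g. For day 11 against day 7 it was 3.35 log2 for Fxyd4, 0.99 for Hsd11b2, 0.92 for Scnn1g and 0.98 for Avpr2. The 2 comparisons share the day 7 libraries. Markers of distal convoluted cells within the connecting tubule gate also differed between these days, and their part was not tested. The adjusted p from edgeR's quasi-likelihood test ranged from 4.52e-38 to 0.0318 over these 7.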

How the results depend on the processing

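Without scaling factors, 4 genes passed over all cells on day 7 against control (1 as reported), where 43.5% of all genes were then higher. In principal cells 2 passed on day 7 (4 as reported) and 2 on day 14 against control (1). For day 14 against control 1 difference between gates passed (0). The cause of these moves was not tested. DESeq2 called 1 gene in principal cells on day 7 and on day 11 against control and 1 from day 11 to day 14, against 4, 3 and 3. The gate of 2 UMIs over 1 marker gave 2 on day 14 against control. Over all cells, leaving out endothelial-gated cells gave 2 on day 7 and 1 on day 14 against control, and fitting only the 2 groups compared gave 1 on day 14. With 1 library left out at a time, counts over all cells ran from 1 to 2, 2 to 5 and 0 to 0 on days 7, 11 and 14 against control, 5 to 7 from day 7 to 11 and 1 to 6 from day 11 to 14; in principal cells from 3 to 5, 1 to 4, 1 to 3, 2 to 3 and 1 to 5 in the same order; and for the difference between gates from 2 to 4 on day 7 against control and on day 11 against day 7. A lone library left in a group was assumed to vary like the others.

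Every call kept its direction. Under all alternatives, 6 of 19 calls over all cells, 6 of 13 in principal cells, 33 of 36 between segments, 8 of 8 against endothelial cells and 4 of 7 between gates were kept. Signs changed only for values that had not passed. On day 7 against control over all cells these were Scnn1g at -0.11 log2 with at most 25% mitochondrial UMIs and, without scaling, Avpr2 at 0.25, Nr3c2 at 0.49 and Fxyd4 at 0.65. In principal cells, gating without Aqp2 put Nr3c2, Scnn1a and Scnn1g on day 14 against control at -0.0005, -0.019 and -0.056, and from day 7 to day 11 Scnn1a was at -0.19 without scaling and Sgk1 at 0.041 with DESeq2. Sgk1 in principal against connecting tubule cells was at -0.12 when gated without Aqp2. With libraries left out, Fxyd4 over all cells ran from -0.42 to 0.22 on day 7 against control, Scnn1a from -0.37 to 0.027 from day 7 to 11, and Avpr2 from -0.039 to 0.40 from day 11 to 14. In principal cells Scnn1b ran from -0.055 to 0.45 on day 11 against control; Nr3c2, Scnn1a and Scnn1g ran from -0.021 to 0.29, -0.020 to 0.12 and -0.093 to 0.12 on day 14 against control; Nr3c2, Sgk1 and Scnn1a ran from -0.68 to 0.20, -0.97 to 1.40 and -0.39 to 0.40 from day 7 to 11; and Avpr2 from -0.16 to 0.32 from day 11 to 14. Sgk1 in principal against connecting tubule cells ran from -0.065 to 0.14.

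Counts over all genes moved by more than 1.5 times as well: in principal cells DESeq2 called 105, 105 and 39 on days 7, 11 and 14 against control and 200 and 200 between neighbouring days, against 562, 514, 199, 795 and 542. Gating without Aqp2 gave 374 on day 7 against control and 524 from day 7 to 11. Over all cells 1292 genes on day 14 against control became 2520 without the filter on low counts and 3604 with only the 2 groups, and 23 differences between gates on day 11 against control became 35 without scaling. With 1 library left out, all-gene counts over all cells ran from 1390 to 3844 (3156) and 365 to 2011 (1292) on days 11 and 14 against control and 1298 to 3500 (3097) from day 11 to 14. In principal cells they ran from 471 to 891 (562), 112 to 1055 (514) and 84 to 529 (199) on days 7, 11 and 14 against control, and 344 to 979 (795) and 231 to 832 (542) between neighbouring days. Differences between gates ran from 203 to 503 (457) and 13 to 22 (23) on days 7 and 11 against control, and 168 to 403 (435) and 24 to 58 (48) between neighbouring days. Same-numbered libraries of different days did not deviate together (correlations 0.059, 0.0019 and -0.053). With 2 libraries per day these correlations cannot settle whether the numbers pair the libraries, and the labels do not say. With a replicate block the counts were 7 and 6 over all cells and 2 and 4 in principal cells for the 2 comparisons of neighbouring days. Scnn1b then passed in principal cells from day 11 to 14 (0.67 log2, edgeR adjusted p = 0.0483). No paired analysis was possible because the control has 1 library in the comparisons with it. Depth is low for Nr3c2, with 9 to 50 UMIs in a principal sum, and for Sgk1, with 7 in the control principal sum.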
